A study of Caenorhabditis elegans with 4 samples.

Results

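The REC-8 peaks of chromosome III were taken from a ChIP-seq study of Caenorhabditis elegans, in which chromatin was immunoprecipitated with an antibody and the recovered DNA was sequenced. A member was any peak of the authors' combined list that lay on chromosome III, and there were 1153 of them among 5893 peaks in all, of which 5889 were on the 6 nuclear chromosomes. Replicate 1 had 339 peaks on chromosome III of 1962 in its list, and replicate 2 had 389 of 2026. The worms were fem-2(b245) hermaphrodites at 20 degrees Celsius, given in the labels as young adults with a germline, although the growth protocol harvested gravid adults. All samples carried this mutation, which lies on chromosome III itself, and no wild-type worms were analysed here. Its product, a protein phosphatase, promotes male fates, sperm formation in hermaphrodites included. The series had 2 REC-8 ChIP libraries, made with 1 rabbit polyclonal antibody, and 2 input libraries, which were not analysed here. The material was whole worms grown in batches, so germline and body cells could not be told apart, and nothing in the labels places the replicates in separate cultures.

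REC-8 is a meiotic kleisin, a subunit that closes the cohesin ring around sister chromatids. It is part of the chromosome axis on which homologues pair, recombine and are later pulled apart. Worm chromosomes are holocentric, which means that they have no single centromere. Their arms recombine often and their central part rarely. Each has a pairing centre near one end, which on chromosome III is the left end.

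Chromosome III is described here in coordinates of WormBase WS220, over an extent of 13.78 Mb that ends at the last peak of any list. Its left arm was the part below base 3720000, its right arm the part above base 10340000, and a peak belonged where its midpoint lay. The gene table at hand is on another genome build, so no peak was assigned to a gene, an exon or an intron. The score of a peak is the authors' own value from the peak caller. Scores of the combined list start at 1.31 and those of the replicate lists at 50, so they were never compared between the 2 kinds of list. No read depth was given, and the intervals below are exact binomial (Clopper-Pearson) 95% intervals that cover counting error only and treat peaks as independent, which neighbouring peaks are not.

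Chromosome III was the most densely marked chromosome of the combined list. It held 19.6% of the nuclear peaks (95% interval 18.6 to 20.6) on 13.7% of the nuclear extent. That is 83.6 peaks per Mb, against 54.8 per Mb over the other 5 nuclear chromosomes, a ratio of 1.53. In the replicates the chromosome had 24.6 and 28.2 peaks per Mb, against 18.8 and 18.9 per Mb on the others, which gave ratios of 1.31 and 1.49. The mean replicate density was 26.4 ± 2.57 peaks per Mb on chromosome III and 18.8 ± 0.123 per Mb on the others (SD, n = 2), so the difference exceeded the spread between replicates.

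Its nearest neighbour in density was chromosome I. The combined list had 83.6 peaks per Mb on III and 73.9 on I, and replicate 1 had 24.6 on III and 21.8 on I. Replicate 2 had the opposite order, with 28.2 on III and 28.6 on I. The replicate means of 26.4 ± 2.57 on III and 25.2 ± 4.79 on I (SD, n = 2) did not differ beyond their spread. With 6 chromosomes as units, an exact test of a single highest chromosome could not pass 0.05, and none was run.

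**Figure D1:**
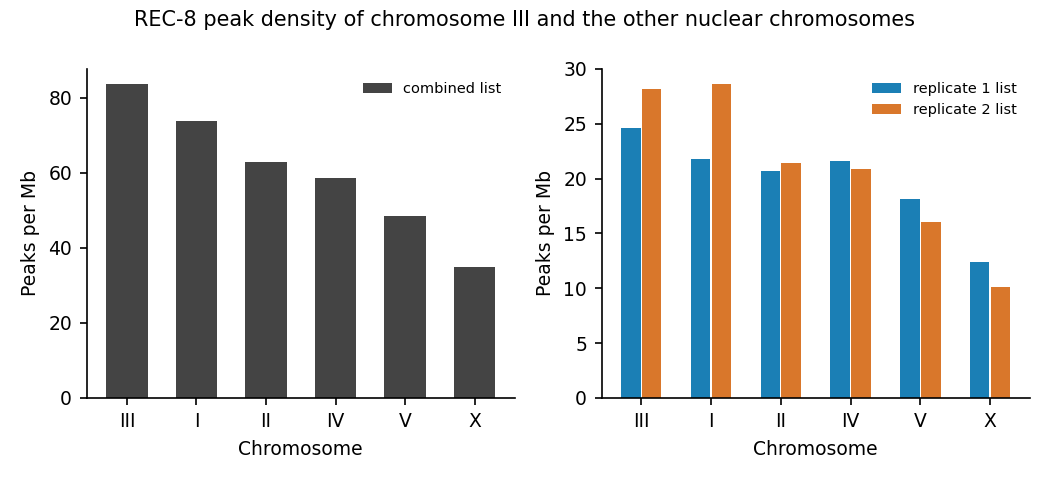
Peaks per Mb on chromosome III and the other 5 nuclear chromosomes, in the combined list (left) and the replicate lists (right), with 1 bar per list. Chromosome III stands at 83.6 in the combined list and at 24.6 and 28.2 in the replicates, where chromosome I reaches 21.8 and 28.6.

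By base pairs chromosome III led in each list, but in replicate 1 only with the dense run described below. REC-8 peaks covered 523 kb of chromosome III, or 3.79% of it, against 2.58% of the other chromosomes. Replicate 1 peaks covered 1.42% of chromosome III and 1.18% of the others, and replicate 2 peaks 5.46% and 3.47%. Chromosome I was nearest, at 3.41% in the combined list, 1.40% in replicate 1 and 4.97% in replicate 2. Without the dense run the peaks covered 3.64% of chromosome III in the combined list, 1.36% in replicate 1 and 5.42% in replicate 2, so that in replicate 1 chromosome III was below chromosome I. Counted as peaks without the run, chromosome III had 80.2 peaks per Mb in the combined list, still above the other chromosomes at 54.8, a ratio of 1.47.

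Arms and centre carried similar densities, and the lists did not give the same direction. The combined list had 547 peaks in the arms, 47.4% of the total (44.5 to 50.4), on 52.0% of the extent. That is 76.4 peaks per Mb in the arms and 91.5 per Mb in the centre. Replicate 1 had 25.4 per Mb in the arms and 23.7 in the centre, whereas replicate 2 had 26.8 in the arms and 29.8 in the centre. The log2 ratio of arms to centre was 0.10 in replicate 1 and -0.15 in replicate 2. The mean was -0.03 ± 0.18 (SD, n = 2), so the spread exceeded it. An exact sign-flip test over 2 replicates cannot go below p = 0.5, so no p-value is given for this or any other difference along the chromosome.

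The dense run and a pair of split domains each moved this ratio. Without the run, the combined list had 76.4 peaks per Mb in the arms and 84.5 in the centre, and replicate 1 had 25.4 in the arms and 21.8 in the centre. Replicate 2, with 1 peak in the run, stayed at 26.8 in the arms and 29.9 in the centre. In replicate 1, 41 of the 182 arm peaks lay inside 2 wide replicate 2 domains near the chromosome ends. With each of these domains counted as 1 peak, a choice made after the data were seen, replicate 1 had 20.0 peaks per Mb in the arms and 23.7 in the centre, and the log2 ratio turned to -0.25. With peaks within 500 bp merged, the log2 ratio was -0.16 in the combined list, -0.23 in replicate 1 and -0.17 in replicate 2. The higher-scored 50% of peaks gave 0.07, 0.05 and 0.04 in the same order of lists. Of all these values the farthest from 0 was the log2 ratio of -0.26 in the combined list with all its peaks.

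The 2 arms differed from each other more than arms and centre did. Replicate 1 had 29.3 peaks per Mb in the right arm and 21.8 in the left, and replicate 2 had 30.8 in the right and 23.1 in the left. The means were 30.1 ± 1.03 peaks per Mb in the right arm and 22.4 ± 0.95 in the left (SD, n = 2), and the replicate values of the arms did not overlap. The combined list had 93.5 per Mb in the right arm and 60.5 in the left, the end with the pairing centre. Merging peaks within 500 bp left the log2 ratio of right to left at 0.53 in the combined list and 0.44 ± 0.01 in the replicates (SD, n = 2). Among the higher-scored 50% of peaks the replicates stood apart, with 12.2 in the right arm and 11.3 in the left in replicate 1, and 16.8 and 11.3 in replicate 2. By base pairs the direction turned in replicate 1, whose peaks covered 1.32% of the right arm and 1.53% of the left. Replicate 2 peaks covered 5.91% of the right arm and 4.52% of the left, and combined peaks 4.25% and 3.14%.

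In windows of 1 Mb the combined list had its fewest peaks in the first 3 Mb, and the replicates followed this only in part. Those windows had 58, 52 and 63 combined peaks, the fewest of the 13 full windows. By base pairs the lowest combined window ran from 9 to 10 Mb, with 24.2 kb covered. The first 3 windows had 36.4, 27.8 and 32.0 kb covered. Replicate 2 had 21, 19 and 24 peaks in the first 3 windows, and 23 to 36 elsewhere. Replicate 1 had 37, 18 and 10, and the 37 were 18 after peaks within 500 bp were merged. The densest combined window, from 7 to 8 Mb, had 148 peaks with the dense run and 96 without it, and the next, from 11 to 12 Mb, had 105. In replicate 1 the last 0.784 Mb had 44 peaks, or 56.1 per Mb, and 28.1 per Mb after merging. Replicate 2 had 33.2 per Mb there.

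**Figure D2:**
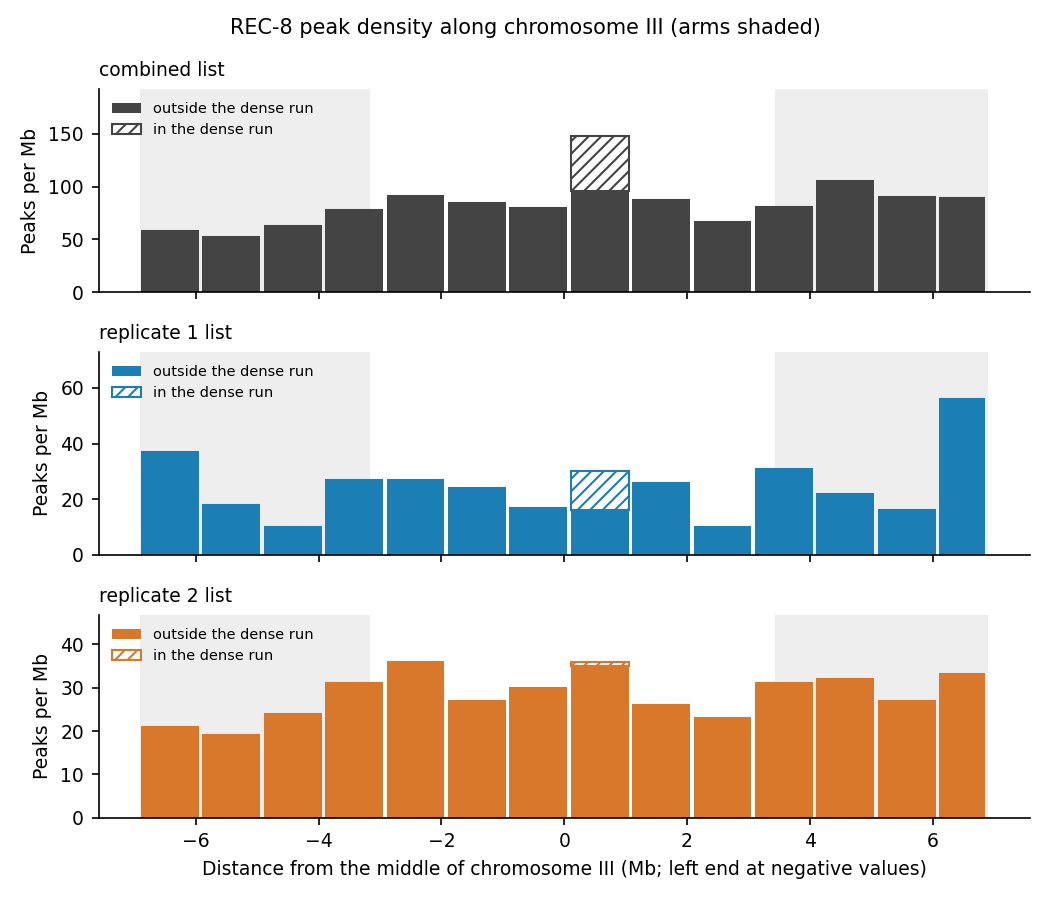
Peaks per Mb in successive windows of 1 Mb along chromosome III, plotted by distance from its middle, with arms shaded and peaks of the dense run hatched. The outer left arm is lowest in the combined list (58, 52 and 63 peaks), and replicate 1 alone is high at both ends (37 and 44 peaks, the last window being 0.784 Mb).

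The dense run, between bases 7400000 and 7460000, was the most crowded stretch of the chromosome in the combined list. It was picked for its density in these same lists, so its values are a description. It held 52 combined peaks between 7405431 and 7452205, a span of 46.8 kb of which they covered 49.4%, against 3.62% of the chromosome outside it. Neighbouring midpoints were a median of 670.0 bp apart in the run and 6019 bp apart outside it. The peaks were ordinary in width, with a median of 302 bp in the run and 288 bp outside. Their scores were low, with a median of 4.32 in the run and 8.23 outside, and 92.3% of run peaks scored under 10, against 58.0% of the peaks outside.

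The run had 2 portions that the replicates treated differently. From 7405431 to 7441038, a stretch of 35.6 kb, came 48 combined peaks with scores of 1.84 to 14.7 and a median gap of 251 bp. In this portion replicate 1 called 12 peaks with scores of 50.2 to 177 and a median of 65.9, near the bottom of its list, and replicate 2 called 0. The nearest replicate 2 peak to the left ended at 7387204. The second portion began with the strongest peak of the run, at 7444292 to 7448099, which was 3808 bp wide and scored 32.9. It was found in both replicates, as 2 adjoining peaks with scores of 1733 and 1023 in replicate 1 and as 1 peak of 8599 bp with a score of 463 in replicate 2. The last 3 peaks of the run, with scores of 3.32 to 5.11, lay under the same replicate 2 peak and had no replicate 1 peak.

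The next strongest peaks of the run belonged to replicate 1 alone. They lay at 7425129 to 7426056, with a combined score of 14.7, and at 7431420 to 7432697, with 12.6, and their best replicate 1 scores were 132 and 91.4. Beyond the run the next combined peak to the right began 46.1 kb away, so the run ended in a stretch that no list marked. The numbers of the run reach whole-chromosome values mainly through density, since it held 52 of 1153 peaks. Without it the median spacing of combined peaks was 6.02 kb, against 5.36 kb with it, and the median width was 288 bp, against 289 bp.

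**Figure D3:**
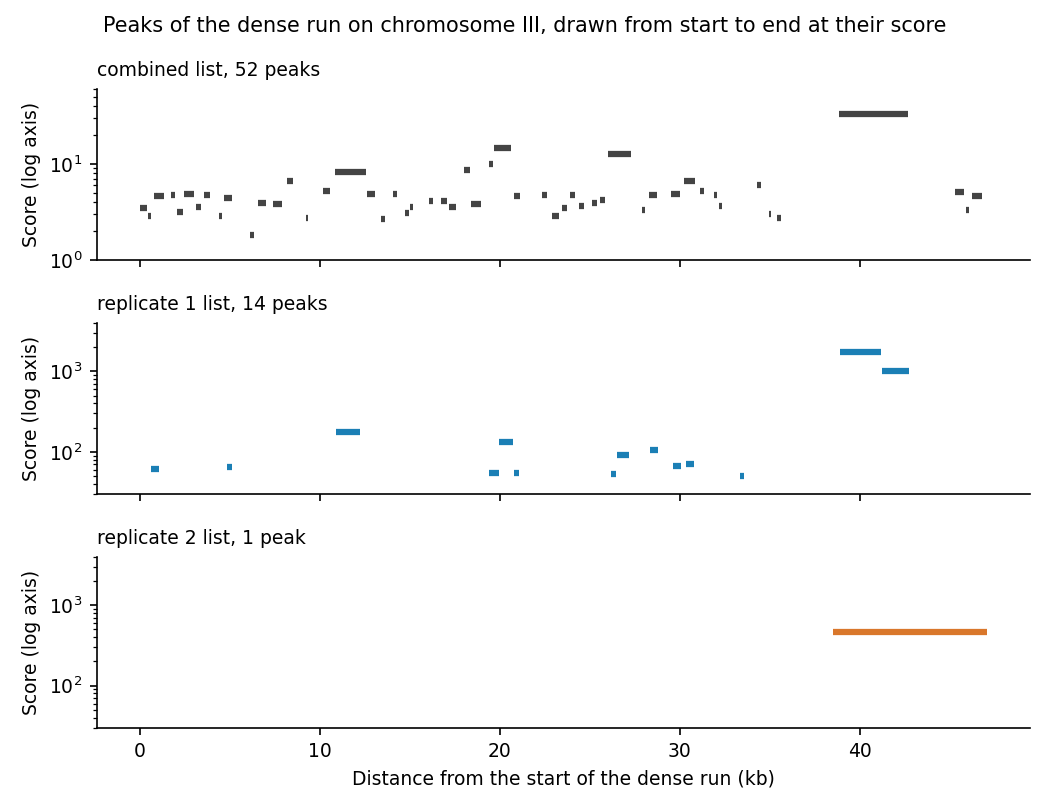
Peaks of the dense run, each drawn as a line from its start to its end at the height of its score (log axis), by distance from the start of the run in kb. The 48 low-scored combined peaks of the first 35.6 kb face 12 replicate 1 peaks and no replicate 2 peak, and the strongest peak is present in all 3 lists.

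In the combined list the other crowded windows were far less dense, and a smaller part of their peaks was in neither replicate. The fullest window in each replicate's own list had 25 peaks in replicate 1 and 10 in replicate 2. Among fixed windows of 100 kb, the one starting at 7400001 had 54 peaks in the combined list, 16 in replicate 1 and 2 in replicate 2. The window starting at 7100001 followed with 21, 4 and 9 in the same order, and the one starting at 12600001 with 19, 4 and 5. In these windows 38 of 54, 5 of 21 and 6 of 19 combined peaks overlapped neither replicate, where 43.3% of all nuclear combined peaks did. In each of the windows 3 combined peaks overlapped both replicates. The mean was 8.36 combined peaks per window, and no window of 138 was empty in the combined list, while 28 had no replicate 1 peak and 12 no replicate 2 peak.

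Long stretches without peaks fell in the same places in both replicates. The longest replicate 2 stretch without a peak, 351 kb from 9055164 to 9406184, nearly coincided with the second longest of replicate 1, 354 kb from 9054294 to 9408220. The longest of replicate 1, 402 kb from 6570248 to 6971877, contained the second longest of replicate 2, 331 kb from 6626984 to 6957768. Both places are in the centre. The combined list was sparse but not empty there, with 7 peaks scoring 2.09 to 8.23 in the stretch at 9055164 and 5 peaks scoring 1.91 to 7.48 in the stretch at 6626984. The third longest stretches lay apart, in the right arm in replicate 1 and in the left arm in replicate 2. The longest stretches of the combined list were 118 kb from 9111105, 104 kb from 9947253 and 102 kb from 9291779, so 2 of these 3 lay inside the gap that the replicates shared. The labels give no depth, and a stretch with no peak cannot be read as free of REC-8.

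By the median, peaks on chromosome III were closer together than on the other chromosomes in each list. The median spacing of midpoints was 5.36 kb on III and 7.55 kb on the others in the combined list, 17.1 and 24.1 kb in replicate 1, and 22.4 and 31.1 kb in replicate 2. Chromosome III had the shortest median of the 6 chromosomes in all 3 lists, although chromosome I was close in replicate 2, at 23.0 kb. Neighbours within 5 kb made up 48.0% of combined neighbours on III and 42.7% on the others. The corresponding shares were 35.5% and 32.8% in replicate 1 and 12.9% and 12.1% in replicate 2. By this share chromosome III led in the combined list alone. In replicate 1 chromosome II was higher, at 37.7%, and in replicate 2 chromosomes I, V and II were, at 14.0%, 13.8% and 13.5%. Merging peaks within 500 bp raised the median spacing on III to 9.0 kb in the combined list and to 27.5 kb in replicate 1, and to only 23.9 kb in replicate 2.

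Most combined peaks were narrow. Their widths ran from 146 to 11720 bp, with a median of 289 bp and quartiles of 202 and 485 bp. The median was 416 bp for replicate 1 peaks (quartiles 268 and 598 bp) and 1529 bp for replicate 2 peaks (1203 and 2009 bp). The medians on the other 5 chromosomes were 295, 434 and 1452 bp in the combined list, replicate 1 and replicate 2, so chromosome III was not above them in all lists. Peak width depends on the fragment length that the caller assumed, and no source used here gives it.

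Width varied little with place. In the combined list the median was 294 bp in the right arm, 270.0 bp in the left arm and 290.5 bp in the centre. Replicate 1 had 380.0, 416 and 462 bp in the same order, and replicate 2 had 1401, 1516 and 1569 bp. Both replicates thus had their widest median in the centre and their narrowest in the right arm, an order that the combined list lacked.

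A small group of wide peaks held much of the covered sequence. The 77 combined peaks of 1 kb or more, 6.68% of the members, carried 29.5% of the summed width. On the other chromosomes 375 peaks, or 7.92%, were as wide. Of the 77 on chromosome III, 62 overlapped both replicates, 11 replicate 2 alone and 4 replicate 1 alone. Of the 280 peaks under 200 bp, 1 overlapped both replicates and 208 overlapped neither. Wide peaks overlap others more easily, and overlap by width was not counted on the other chromosomes. These counts are thus a description and are not shown to be particular to chromosome III.

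**Figure D4:**
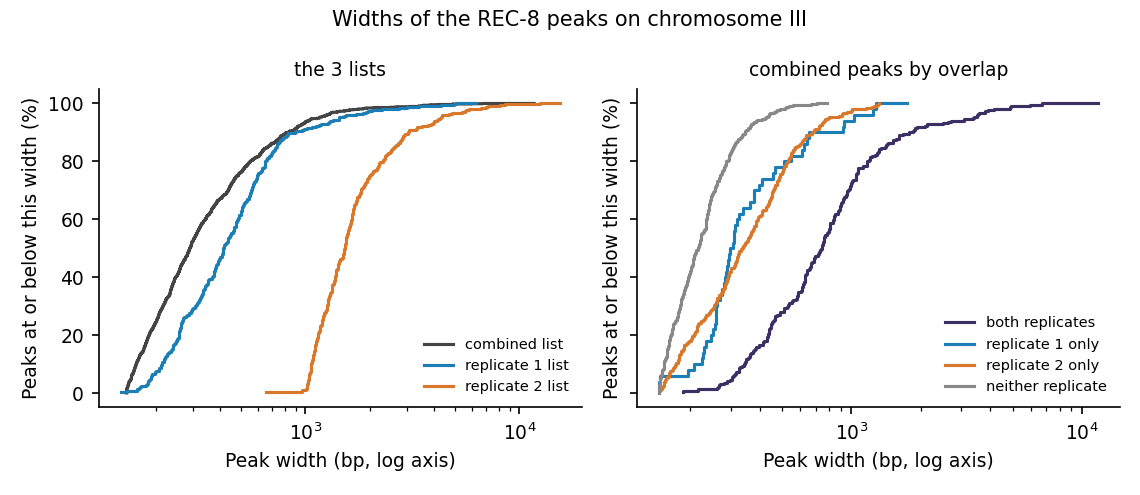
Cumulative share of chromosome III peaks by width (bp, log axis), for the 3 lists (left) and for combined peaks by the replicate lists they overlap (right). Replicate 2 peaks sit to the right of the others (median 1529 bp), and combined peaks in both replicates are wider (median 743 bp) than those in neither (216 bp).

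The 5 widest combined peaks were 4877 to 11720 bp wide, and all 5 were found in both replicates. The widest, at 321610 to 333329 near the left end, was 1 peak of 12476 bp with a score of 2418 in replicate 2 and 17 separate peaks in replicate 1, the best of which scored 745. The domain at 13592286 to 13599014, near the right end, was 6729 bp wide with a combined score of 17.6. The replicate 2 peak over it ran from 13583898 to 13599302 and held 24 replicate 1 peaks and 5 combined peaks. These were the only places on the chromosome where a replicate 2 peak held more than 3 replicate 1 peaks.

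The other wide domains were called whole in both replicates. The domain at 2497002 to 2502963 was 5962 bp wide in the combined list, 6286 bp in replicate 1 and 7154 bp in replicate 2, and scored 3100 in each replicate, a value that several top peaks share. At 5939109 to 5944010 the widths were 4902, 4945 and 5650 bp in the same order, with scores of 3100 in replicate 1 and 1939 in replicate 2. At 2077616 to 2082492 they were 4877, 5043 and 5787 bp, with scores of 854 and 2781. Of the 5 widest, 3 lay in the left arm, 1 in the centre and 1 in the right arm, and their combined scores ran from 17.6 to 44.2.

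The highest-scored peaks were much narrower. Combined scores of 153 to 162 marked the top 3 of each part of the chromosome among peaks found in both replicates, and these 9 peaks were 398 to 1410 bp wide. In the right arm they lay at 11110636 to 11111033, 11160019 to 11161428 and 10706716 to 10707515. In the left arm they lay at 1618607 to 1619553, 1859352 to 1860158 and 1142596 to 1143661. In the centre they lay at 8043491 to 8044291, 9533570 to 9534891 and 4962636 to 4963440.

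These 9 peaks were chosen for their combined scores, which are therefore alike, while their replicate scores covered a wide span. The centre peak at 9533570 scored 3103 in replicate 1 and 3100 in replicate 2, and its combined score was 162. The right arm peak at 10706716 scored 635 in replicate 1 and 1720.5 in replicate 2, and its combined score was 153. The left arm peak at 1142596, with scores of 885 and 1886, reached 159. Each of the 9 was a single peak in each replicate, and all but 1 were narrower in replicate 1 than in the combined list. The exception was the 398 bp peak at 11110636, which was 570 bp wide in replicate 1.

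Each combined peak was then sought in the replicate lists, with an overlap of at least 1 bp. On chromosome III 271 of 1153 combined peaks, or 23.5% (21.1 to 26.1), overlapped a replicate 1 peak, where 28.9% of all nuclear combined peaks did. For replicate 2 the number was 603, or 52.3% (49.4 to 55.2), where the share over all nuclear peaks was 50.9%. Both replicates were overlapped by 221, or 19.2% (16.9 to 21.6), against 23.1% over all nuclear peaks. Neither was overlapped by 500, or 43.4% (40.5 to 46.3), against 43.3%. The shares for replicate 2 and for neither were thus near the background, while those for replicate 1 and for both lay below it.

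The share found in replicate 1 was the lowest of the 6 chromosomes. It was 23.5% on III and between 27.6% and 32.8% on the others, with chromosome I nearest. The share found in both was 19.2% on III and between 22.5% and 25.5% on the others. Without the dense run, 23.6% of combined peaks on III were found in replicate 1 and 20.0% in both, still below those ranges. As with density, 6 chromosomes cannot give an exact test that passes 0.05.

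The share was also lowest on III from the side of replicate 2, though close to that on chromosome I. Of its 389 peaks on chromosome III, 195 (50.1%, 45.0 to 55.2) overlapped a replicate 1 peak, against 58.7% of all nuclear replicate 2 peaks. The other chromosomes ranged from 52.9% on I to 71.5% on X. The intervals on I (48.1 to 57.7) and II (50.7 to 61.7) overlap that on III. Of the 339 replicate 1 peaks on III, 275 (81.1%, 76.5 to 85.1) overlapped a replicate 2 peak, against a background of 80.9%. In the right arm, the left arm and the centre, 84.2%, 86.4% and 76.4% of replicate 1 peaks were shared. The arm shares include the 41 replicate 1 peaks inside 2 wide replicate 2 domains, which all count as shared. The centre share includes the dense run, and without the run 84.0% of the chromosome's replicate 1 peaks were shared. The order of arms and centre therefore depends on these places.

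Sharing differed far more between score groups than between the arms and the centre. In the lowest of 4 equal groups by combined score, 1.82 to 4.62, 3 of 289 peaks (1.04%) were in both replicates and 66.1% in neither. In the highest group, 18.6 to 162, 182 of 288 (63.2%) were in both and 4.51% in neither. By place, 18.6% of right arm peaks, 22.2% of left arm peaks and 18.3% of centre peaks were in both, with intervals that overlap. Peaks in both had a median score of 46.0, those in replicate 1 alone 11.1, those in replicate 2 alone 8.12 and those in neither 5.50. On the other 5 chromosomes these medians were 50.1, 9.78, 7.54 and 5.57. Overlap by score group was not counted there, so the counts by group are not shown to be particular to chromosome III. The combined list came from the same study, so its scores are not independent of the replicates.

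The dense run stood apart in this respect as well. Of its 52 peaks, 38 (73.1%, 59.0 to 84.4) were in neither replicate, 10 in replicate 1 alone, 3 in replicate 2 alone and 1 in both. Outside the run 42.0% were in neither. Scores in the run were also low, with a median of 4.32, and 66.1% of the chromosome's lowest-scored group were in neither. Whether low scores account for the share in the run was not tested.

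**Figure D5:**
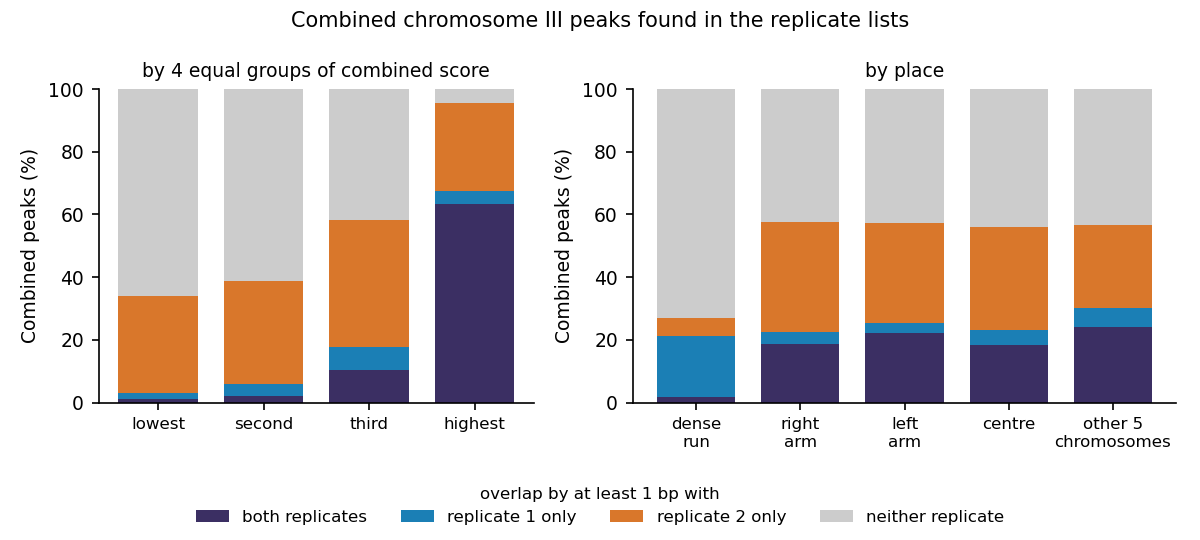
Share of combined peaks on chromosome III that overlap both, either or neither replicate list by at least 1 bp, by 4 equal groups of combined score (left) and by place (right, the centre including the dense run). The share in both climbs to 63.2% in the highest group, against 1.04% in the lowest, and 73.1% of peaks in the dense run are in neither.

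Most places that the replicates shared one to one had close midpoints. On chromosome III 159 places had 1 peak in each replicate overlapping only each other. The median distance between their midpoints was 72.0 bp, with an upper quartile of 222 bp and a largest value of 2028 bp. Over all replicate 1 peaks on III, split domains included, 53.7% had a replicate 2 midpoint within 500 bp, fewer than the 81.1% that overlapped a replicate 2 peak. At the one-to-one places the replicate 1 peak lay wholly inside the replicate 2 peak at 157 of 159. The replicate 2 peak was the wider at 158 of 159, and the medians were 1549 bp for replicate 2 and 475 bp for replicate 1. The scores ran in parallel, with Spearman's rho at 0.76 and Pearson's r at 0.77 over the 159 places. Over the 153 with both scores below 3100, rho was 0.74. These are descriptions across places of 1 chromosome in 1 pair of libraries, which share their alignment and neighbouring peaks.

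Peaks missed by the other replicate had the lower median scores. In replicate 1 the median score was 203 for the peaks on III that replicate 2 shared and 71.5 for those it did not. In replicate 2 the medians were 561 and 121. The other 5 chromosomes had the same order, with 230.0 and 83.9 in replicate 1 and 581 and 106 in replicate 2. By combined score, not all peaks found in a single replicate were low. In the highest of the 4 equal score groups, 12 of 288 combined peaks (4.17%) overlapped replicate 1 alone and 81 (28.1%) replicate 2 alone. Over all combined peaks on III these shares were 4.34% and 33.1%. Among combined peaks of 1 kb or more, the 4 in replicate 1 alone had a median combined score of 54.8. The 11 in replicate 2 alone had a median of 11.8. Of the 389 replicate 2 peaks, 36 held 2 or more replicate 1 peaks and 134 held 2 or more combined peaks. On the other 5 chromosomes these numbers were 204 and 511 of 1637. All 389 overlapped the combined list, as did 326 of 339 replicate 1 peaks (96.2%). The shares on the other chromosomes were close to these, at 99.7% for replicate 2 and 97.3% for replicate 1.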

How the data were processed

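The submitters' processing notes name BWA and the ce10 build, and the headers of the deposited lists place the peaks on WormBase WS220. The source column names MACS for the replicate lists and MACS v2 for the combined list. Each deposited peak has a first base, a last base and a score made by the authors' peak caller, on a scale that no source used here gives. Filters, fragment length, versions, the use of the inputs and the way the replicates were combined are likewise not given.

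Sample titles gave the group and replicate number. From the deposited positions, midpoints, widths, coverage and overlaps (at least 1 bp) were computed with Python 3.11.15, numpy 2.4.6, pandas 2.3.3 and scipy 1.17.1, and drawn with matplotlib 3.10.9. Mitochondrial peaks were left out. Chromosome extents were the largest peak end over the 3 lists. Depth is unknown. With 2 replicates no test was run. Functions were tested on simulated lists of 1000 peaks, where all 11 checks returned the known answer.

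Named peaks were the 3 highest-scored peaks in both replicates per arm and centre, the 5 widest, the 3 highest-scored in neither, the ends, the top 3 of the run, the 3 fullest windows of 100 kb and the 3 longest gaps. The members, the run, the lists and this rule were chosen with earlier results of these data known. Alternatives were the higher-scored 50% of each list, merging within 500 bp, leaving out the run, base pairs, the outer 2 of 3 equal parts as arms, 50% overlap, midpoints within 500 bp and each replicate left out. No WS220 sequence or annotation was used here, so no peak sequence is shown.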

Additional observations from a re-analysis of the deposited data

How the results depend on the processing

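Of 54 alternative values for 10 results, 26 stayed within the 95% interval of the value as reported and 28 did not. Leaving out the dense run kept all 10 within it. For the others the cause was not tested, except where fewer or longer peaks or a shorter centre move a value by construction. The shares in both and in neither also move by construction when a replicate is left out. With the higher-scored 50% of each list, the arm share moved to 53.2%, the median width to 443 bp, the share in replicate 2 to 41.6%, in both to 22.5% and in neither to 55.9%, the shared part of replicate 1 to 89.3% and of replicate 2 to 62.1%, and the median spacing to 17.3 kb. Merging peaks within 500 bp gave a median width of 318 bp, 26.8% in replicate 1, 46.5% in replicate 2, 21.8% in both, 48.4% in neither and a spacing of 9.0 kb. Midpoints within 500 bp gave 38.1% in replicate 2, 15.4% in both, 53.3% in neither, and shared parts of 53.7% for replicate 1 and 43.7% for replicate 2. With the outer 2 of 3 equal parts as arms, their share was 61.8%, on a larger part of the extent than the 52.0% of the main arms. With each replicate left out in turn, the share of nuclear peaks on chromosome III ranged from 17.3% to 19.2%, the arm share from 49.4% to 53.7% and the median width from 416 to 1529 bp. The share in both then became the overlap with the remaining replicate, 23.5% for replicate 1 and 52.3% for replicate 2. The share in neither became the rest, 76.5% and 47.7%. In the replicate 1 list alone, counting its 2 split domains as 1 peak each gave an arm share of 47.7%, an alternative chosen after seeing the data. No paired analysis was possible because only the ChIP group has peak lists, and no values were analysed for the inputs with the same numbers. With no depth given, a peak that a list lacks is not shown to be absent.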

Other observations

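At the left end of chromosome III the lists coincided, and at the right end their last peaks lay apart. The first peak began at base 1 in the combined list and in replicate 1 and at base 2 in replicate 2, with widths of 260, 212 and 656 bp and scores of 25.5, 321 and 109. The last combined peak, at 13783363 to 13783731 with a score of 15.3, overlapped neither replicate. The last replicate 1 peak ended at 13782908 with a score of 58.4, and the last replicate 2 peak at 13754886 with a score of 1776.

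The 3 highest-scored combined peaks found in neither replicate all lay in the left arm, within 500 kb of one another. They were at 1080580 to 1080812 with a score of 28.5, at 1533582 to 1533881 with 26.3 and at 1202177 to 1202471 with 25.2, and were 233 to 300 bp wide. Their scores fall in the highest of the 4 equal score groups of the chromosome, in which 13 of 288 peaks were in neither.

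In the other direction, 13 replicate 1 peaks on the chromosome had no combined peak and no replicate 2 peak. Their scores ran from 50.2 to 221, and the highest was at 12143747 to 12143990, a position chosen after its value was seen. Replicate 2 had 0 such peaks. On the other chromosomes 44 of 1622 replicate 1 peaks and 5 of 1637 replicate 2 peaks had no combined peak.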
